A study of Mus musculus with 26 samples.

Results

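The alpha, pi and theta glutathione transferases of mouse liver were described here through 10 genes of the 47643 in the deposited count table. The rows were found by matching their Ensembl identifiers, without version, to the symbols Gsta1, Gsta2, Gsta3, Gsta4, Gstp1, Gstp2, Gstt1, Gstt2, Gstt3 and Mgst1. Mgst1 was in the rule but belongs to none of these classes, since it encodes a microsomal, membrane-bound transferase of a separate protein family. Messenger RNA had been sequenced in 26 libraries of 10 groups, and each treated group was compared with its own control. The first pair was whole liver of wild type C57BL/6J mice, 8 weeks old and fed ad libitum, given corn oil (n = 2) or TCPOBOP (n = 2), an agonist of the nuclear receptor CAR. The sample titles place the TCPOBOP livers at 36 h, while a second label field gives a shorter time. The second pair was whole liver of wild type C57BL/6J mice (n = 3) and of Fxr-/- Shp-/- mice on that background (n = 3). All were 12 weeks old and fed ad libitum. The Fxr-/- Shp-/- mice are labelled as knockouts of Fxr (Nr1h4), a receptor for bile acids, and of the corepressor Shp (Nr0b2). The third pair was whole liver of C3H/HeN mice, 8 to 10 weeks old and fed ad libitum, taken 48 h after partial hepatectomy (PHx, n = 3) or as a sham control at 0 h (n = 3), so the time after surgery differed along with the surgery. The fourth pair was isolated hepatocytes, not whole liver, of wild type C57BL/6J mice, 16 weeks old and fasted for 10 h, on chow (n = 2) or a 60% fat diet (n = 2). The last pair was whole liver of C57BL/6J mice homozygous for floxed Fxr and Shp alleles, 10 to 12 weeks old and fasted for 8 to 10 h, on chow (n = 3) or a cholic acid diet (n = 3). Both groups of that pair carried the floxed alleles, and the labels name no Cre line for either. The labels do not say that replicates were separate animals, so p-values measure the spread between these libraries.

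Glutathione transferases join the tripeptide glutathione to electrophilic drugs, carcinogens and products of lipid peroxidation, and the conjugates are then pumped out of the cell into bile or blood. The cytosolic enzymes are dimers grouped into classes by sequence, and hepatocytes are a main site of the alpha class. Several of the genes are known targets of the oxidative stress factor Nrf2 and of the drug-sensing nuclear receptors CAR and PXR. Gsta1 and Gsta2 conjugate a wide range of electrophiles, Gsta3 is the alpha enzyme of mouse liver best known for inactivating aflatoxin epoxide, and Gsta4 acts on 4-hydroxynonenal, a product of lipid peroxidation. Gstp1 and Gstp2 are close copies in the pi class, which also holds Gstp3, and the theta enzymes Gstt1, Gstt2 and Gstt3 act on small halogenated and related compounds.

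Positions are those of GENCODE release M21 on GRCm38, the build named in the submitters' processing notes. Gsta4 (ENSMUSG00000032348.5, chr9:78182774-78209349, plus strand), Gsta1 (ENSMUSG00000074183.3, chr9:78230656-78242684, plus strand) and Gsta2 (ENSMUSG00000057933.10, chr9:78331018-78355788, minus strand) lie in 1 cluster. Gsta3 (ENSMUSG00000025934.15, chr1:21240589-21265661, plus strand) lies apart from it and is overlapped by Gm28836 on the opposite strand. Gstp1 (ENSMUSG00000060803.5, chr19:4035407-4037985) and Gstp2 (ENSMUSG00000038155.10, chr19:4040285-4046023) are neighbours on the minus strand. Gstt3 (ENSMUSG00000001665.10, chr10:75774115-75781414), Gstt1 (ENSMUSG00000001663.10, chr10:75783813-75798584) and Gstt2 (ENSMUSG00000033318.6, chr10:75831114-75837424) follow each other on the minus strand, and Gm20441 overlaps Gstt3 on the same strand. Mgst1 (ENSMUSG00000008540.11) lies at chr6:138140316-138156755 on the plus strand. All 10 are annotated as protein coding, and a count here is a sum over the exons of a gene.

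Some of these genes are close copies of each other, which limits how well short reads tell them apart. The coding sequences of Gsta1 and Gsta2 were identical at 655 of 669 aligned bases (97.91%), with an unbroken identical run of 196 bases, and Gm10639, a protein-coding gene of the same cluster (chr9:78289923-78305525), matched Gsta2 at 98.51%. Gstp1 and Gstp2 were identical at 621 of 633 bases (98.1%), with an identical run of 303 bases, and the processed pseudogene Gstp-ps (chr1:192073820-192074450, minus strand, within Traf5) matched Gstp2 at 99.21% and Gstp1 at 97.62%. By contrast, Gsta1 shared 80.5% with Gsta3 and 74.07% with Gsta4, and Gstt1 shared 76.94% with Gstt3 and 72.13% with Gstt2. The window of 90 coding bases in which the copies differed most is shown for each family, read from the GENCODE M21 transcripts, because only reads that cover a differing base, here or elsewhere in the transcript, can be assigned to 1 copy. Capitals mark bases that differ from the first sequence. The alpha window covers coding bases 578 to 667 of Gsta1, where Gsta2 differed at 6 bases and Gm10639 at 7.
Gsta1: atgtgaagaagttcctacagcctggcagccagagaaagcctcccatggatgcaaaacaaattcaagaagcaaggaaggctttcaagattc
Gsta2: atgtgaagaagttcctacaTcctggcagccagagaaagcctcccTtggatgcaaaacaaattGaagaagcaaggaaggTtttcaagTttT
Gm10639: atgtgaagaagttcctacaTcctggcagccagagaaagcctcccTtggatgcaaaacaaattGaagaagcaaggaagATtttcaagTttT
The pi window covers coding bases 241 to 330 of Gstp1, where Gstp2 differed at 6 bases and Gstp-ps at 7.
Gstp1: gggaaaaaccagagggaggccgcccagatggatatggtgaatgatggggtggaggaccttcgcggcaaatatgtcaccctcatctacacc
Gstp2: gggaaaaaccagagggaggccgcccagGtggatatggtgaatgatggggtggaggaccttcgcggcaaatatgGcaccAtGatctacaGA
Gstp-ps: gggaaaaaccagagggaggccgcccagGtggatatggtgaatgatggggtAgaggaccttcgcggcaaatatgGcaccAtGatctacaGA

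The 250 bases before the start site were read from RefSeq promoter entries (GRCm38.p6), which existed for 8 of the 10 genes. They are shown for Gsta1 and Gsta2, whose transcripts rose in the same comparisons, for the pi pair, and for Gsta3, which holds a motif that the first pair lacks. Each was searched on both strands for TGACNNNGC (the core of the antioxidant response element bound by Nrf2), TGACTCA (the AP-1 site) and AGGTCA (a core element of nuclear receptors). The first and second motif can overlap, since they share their opening letters. The RefSeq starts of Gsta1, Gsta2, Gstp1 and Gstp2 lie inside the GENCODE spans given above. Their windows thus overlap the annotated genes, in part for Gsta1 and Gstp1 and wholly for Gsta2 and Gstp2. Capitals mark matches.
Gsta1, chr9:78230419-78230668, plus strand: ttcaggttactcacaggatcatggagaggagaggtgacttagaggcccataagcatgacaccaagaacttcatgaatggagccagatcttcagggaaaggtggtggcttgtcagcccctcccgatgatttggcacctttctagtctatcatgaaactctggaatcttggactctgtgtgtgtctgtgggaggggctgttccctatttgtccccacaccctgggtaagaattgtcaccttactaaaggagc
Gsta2, chr9:78347146-78347395, minus strand: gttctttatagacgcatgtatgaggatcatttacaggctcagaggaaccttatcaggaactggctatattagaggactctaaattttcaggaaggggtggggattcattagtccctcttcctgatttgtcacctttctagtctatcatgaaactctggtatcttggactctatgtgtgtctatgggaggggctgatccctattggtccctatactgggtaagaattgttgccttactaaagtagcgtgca
Gsta3, chr1:21240335-21240584, plus strand: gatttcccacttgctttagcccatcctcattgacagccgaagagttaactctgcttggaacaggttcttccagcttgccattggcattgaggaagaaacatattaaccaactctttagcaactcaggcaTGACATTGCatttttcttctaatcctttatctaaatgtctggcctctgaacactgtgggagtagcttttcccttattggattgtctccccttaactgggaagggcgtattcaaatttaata
Gstp1, chr19:4037913-4038162, minus strand: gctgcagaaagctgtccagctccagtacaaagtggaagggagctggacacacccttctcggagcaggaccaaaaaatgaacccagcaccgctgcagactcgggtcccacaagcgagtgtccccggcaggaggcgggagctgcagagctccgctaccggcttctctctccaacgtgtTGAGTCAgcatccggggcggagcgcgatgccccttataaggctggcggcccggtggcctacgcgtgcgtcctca
Gstp2, chr19:4042222-4042471, minus strand: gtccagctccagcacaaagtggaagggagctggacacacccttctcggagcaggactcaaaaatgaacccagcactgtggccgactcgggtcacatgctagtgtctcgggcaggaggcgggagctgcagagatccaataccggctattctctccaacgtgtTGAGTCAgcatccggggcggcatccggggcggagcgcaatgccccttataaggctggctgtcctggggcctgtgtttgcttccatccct
The antioxidant response core occurred 121 to 113 bases before the start of Gsta3 on the plus strand and 56 to 48 bases before a start of Mgst1 on the minus strand, and it occurred in 10.2% of 32851 promoters of the same length. The AP-1 letters occurred 74 to 68 bases before the start of Gstp1 and 89 to 83 bases before that of Gstp2. They occurred in 4.46% of all promoters. On the strand shown they read TGAGTCA and are followed by gc in both genes. Looser forms of the antioxidant response core were not searched. AGGTCA occurred in 14% of all promoters and in none of the entries of these 8 genes. The Gsta1 and Gsta2 windows were identical at 190 of 235 aligned bases (80.9%), and those of Gstp1 and Gstp2 at 208 of 235 (88.5%). A match is a description of letters, and no match says only that these letters are not in this window.

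Gene counts per library ranged from 13949059 to 70367874, and values are given as CPM, read counts relative to library size after TMM scaling within each experiment. Hepatocyte markers (Alb, Apoa1, Ttr, Cps1, Tat) summed to 44760 CPM or more in every library, against at most 441.1 CPM for the summed markers of any other cell type tested. The genes targeted in the knockout were lower there, at 0.595 to 1.68 CPM for Nr0b2 against 13.7 to 28.2 CPM in wild type. Nr1h4 stood at 55.7 to 65.0 CPM against 117.3 to 161.1 CPM, so its RNA remained in the knockout. In the floxed mice Nr0b2 stood at 14.4 to 18.2 CPM on chow and 42.6 to 89.6 CPM on cholic acid. Nr1h4 stood at 120.2 to 142.6 CPM on chow and 55.3 to 80.9 CPM on cholic acid, without overlap. The RNA of both genes was thus present in both groups, and why Nr1h4 was lower on cholic acid was not tested. The library labelled corn oil 1 stood apart from its group. Its level of the CAR target Cyp2b10 was 3786 CPM, like the 3465 and 3079 CPM of the TCPOBOP libraries and unlike the 10.3 CPM of corn oil 2, so the values of all 10 genes in that experiment are given with and without it. Reads that did not align uniquely made up 43.2% to 44.1% in the wild type livers and 25.5% to 26.9% in the Fxr-/- Shp-/- livers compared with them, without overlap, and 16.6% to 25.1% in the other 20 libraries. This difference runs with the knockout comparison and touches the close copies above, and its part in the results was not tested.

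Levels differed widely among the 10 genes when counts were divided by transcript length. On the scale of CPM per kb, Mgst1 was the most abundant in 7 of 10 groups, at 2735 ± 119 (SD, n = 3) in wild type liver. Gstp1 was at 1266 ± 84.5 and Gsta3 at 619.3 ± 28.6 in the same livers. Gsta1 was the least abundant there, at 0.452 ± 0.188 CPM per kb, and it was also the least abundant in sham liver and in chow hepatocytes. In cholic acid fed liver the level of Gsta1 was 235.4 ± 106 CPM per kb, a rank of 5 among the 10 genes. The levels by library show this spread and the group differences described next.

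**Figure D1:**
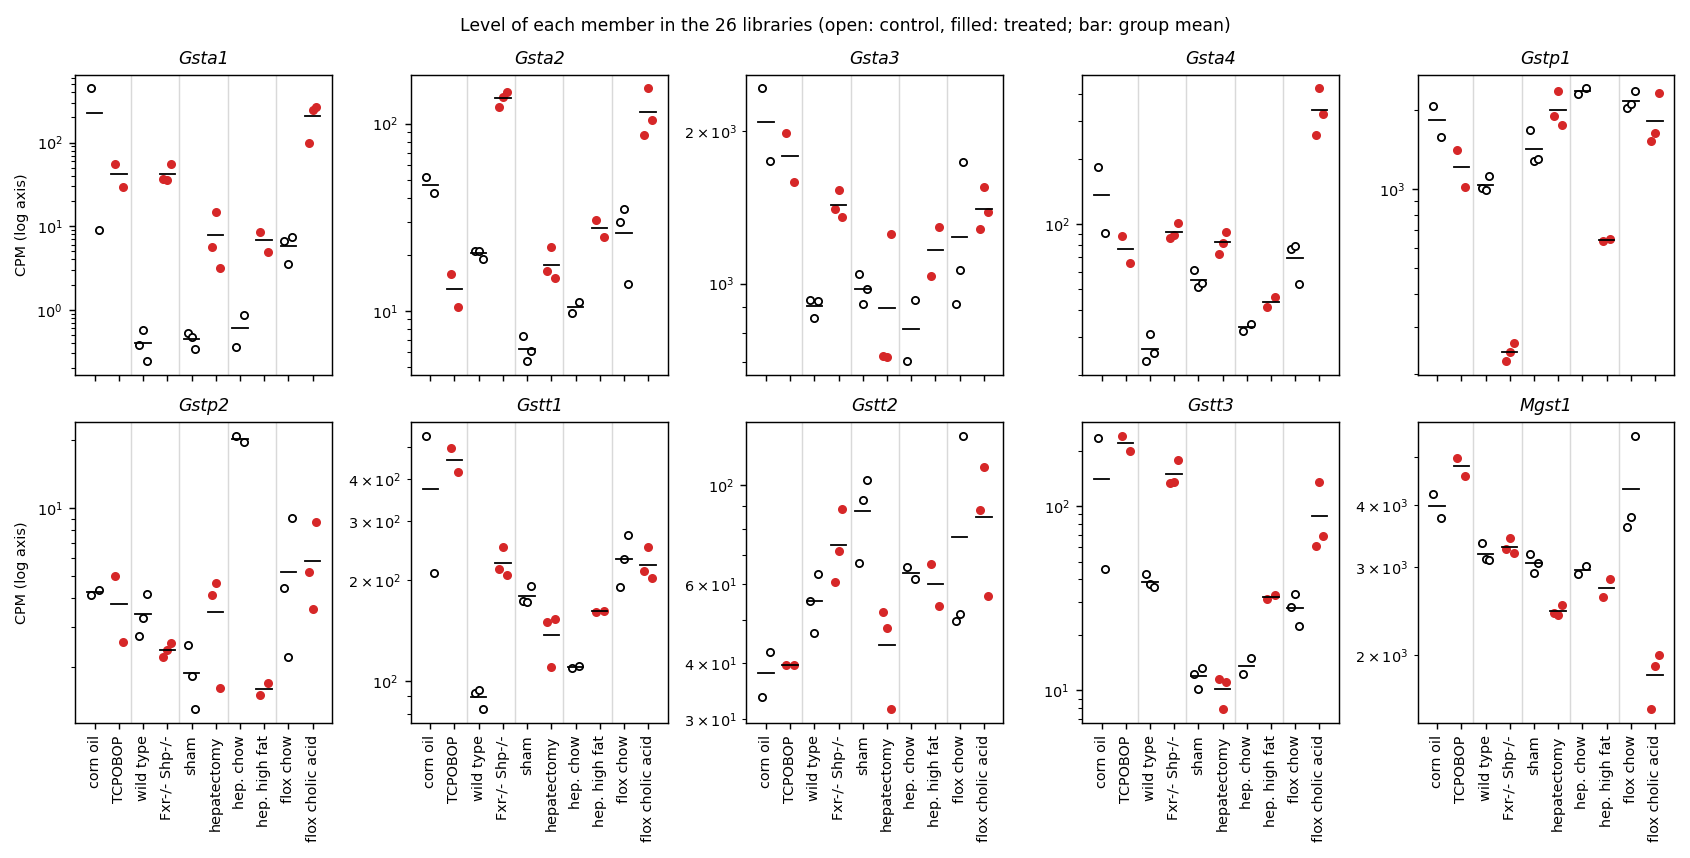
CPM on a log axis for each of the 10 genes in all 26 libraries, with open points for control libraries, filled points for treated libraries and a bar at each group mean. Gsta1 ran from 0.242 CPM in a wild type liver to 447.0 CPM in the library labelled corn oil 1, whereas Gsta3 and Mgst1 kept within a narrow band in most groups.

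In the Fxr-/- Shp-/- livers the alpha and theta transferases were mostly higher and the main pi transferase was lower. Of the 10 genes, 6 rose (Gsta1, Gsta2, Gsta3, Gsta4, Gstt1, Gstt3), where 21% of all 13473 genes tested rose. Only Gstp1 fell, where 19.4% of all genes fell, so the count that fell was not above the background. The median log2 fold change of the 10 genes was 1.00, against -0.01 over all genes. All 7 calls were kept in each of the 12 alternatives tried per gene, which included leaving out each library. Calls were made with edgeR's quasi-likelihood test at a Benjamini-Hochberg adjusted p under 0.05 over all genes tested, here and below. Markers of other cells moved in the same livers: 4 of 5 cholangiocyte markers rose, and their sum was 27.3 to 38.0 CPM in wild type livers and 57.4 to 134.8 CPM in knockout livers. Of the 5 stellate cell markers 3 rose (sums of 51.2 to 85.8 and 119.2 to 145.2 CPM), as did 2 of 5 endothelial markers and 1 of 4 Kupffer cell and leukocyte markers tested. Apoa1 and Tat of the hepatocyte list and Alas2 of the erythroid list fell. Hbb-bs and Hba-a1, also of the erythroid list, had log2 fold changes of 0.37 and 0.33 that were not called. In chow hepatocytes Alas2 averaged 138.9 CPM, where Hbb-bs and Hba-a1 averaged 0.811 and 0.578 CPM. The part of cell makeup in these results was not tested, and in bulk RNA fewer cells of a type and less RNA per cell cannot be told apart.

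At 48 h after partial hepatectomy the alpha genes Gsta1, Gsta2 and Gsta4 were higher and Gstt2 was lower. With Gstp1 this made 4 genes that rose, where 16.4% of 13753 genes rose. Gstt2 and Mgst1 fell, where 14.3% of all genes fell, so the count that fell was near the background. The median log2 fold change of the 10 genes was 0.18, against 0.01 over all genes. The number of genes called fell from 4225 to 2554 without sham library 2 and to 2575 without sham library 3. Of the 10 genes, 4 were called in each of these fits and 9 without PHx library 3. In the same livers 1 of 5 cholangiocyte markers (Krt19) and 2 of 5 stellate cell markers (Col1a1 and Col3a1) rose. Without a call, Krt7, Sox9 and Des were higher, and Epcam, Spp1, Lrat and Reln were lower. Cholangiocyte markers summed to 25.7 to 41.4 CPM in sham and 23.7 to 35.4 CPM after surgery, and stellate cell markers to 82.5 to 101.1 and 102.2 to 124.8 CPM. Alb, Apoa1 and Tat of the hepatocyte list and the endothelial marker Lyve1 fell. The summed hepatocyte markers were 124700 to 127700 CPM in sham and 93000 to 104200 CPM after surgery, and their part in the results was not tested.

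In hepatocytes of mice on the high fat diet, alpha and theta genes were higher and Gstp1 and Gstp2 were lower. Gsta1, Gsta2, Gsta4, Gstt1 and Gstt3 rose, which is 5 genes, where 12.9% of 13892 genes rose. Gstp1 and Gstp2 fell, where 11.1% of all genes fell, so the count that fell was near the background. The median log2 fold change of the 10 genes was 0.45, against 0.01 over all genes. The number of genes called fell from 3333 to 1141 without high fat library 1 and to 1793 without high fat library 2. All 5 endothelial markers, 4 of 5 stellate cell markers and all 4 Kupffer cell and leukocyte markers tested were higher in these hepatocyte preparations. Endothelial markers summed to 34.6 to 36.7 CPM on chow and 85.3 to 87.7 CPM on the high fat diet, and stellate cell markers to 3.96 to 7.60 and 19.5 to 20.8 CPM. Kupffer cell and leukocyte markers summed to 13.7 to 16.3 and 28.5 to 28.6 CPM, and cholangiocyte markers to 9.92 to 10.35 and 9.81 to 16.2 CPM. The cholangiocyte markers Krt19 and Epcam were at 0 in both chow libraries, where Sox9 and Spp1 averaged 5.57 and 4.56 CPM. The log2 fold changes of Sox9 and Spp1 were -1.36 and 1.23, and neither was called. Hepatocyte markers summed to 85350 to 87080 and 84010 to 85100 CPM, with Apoa1 lower (log2 fold change -0.66, edgeR adjusted p 0.0203). The part of these cells in the results was not tested.

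In livers of mice fed cholic acid, 3 alpha genes were higher and neither Gstp1 nor Gstp2 was called. Gsta1, Gsta2, Gsta4 and Gstt3 rose, which is 4 genes, where 2.27% of 12577 genes rose. Mgst1 fell, where 2.5% of all genes fell. The median log2 fold change of the 10 genes was 0.17, against 0.01 over all genes. The number of genes called in this experiment was 600 with all libraries and depended on each of them, at 298, 194 and 1345 without chow library 1, 2 or 3 and 271, 189 and 196 without cholic acid library 1, 2 or 3. Among cell markers only Reln of the stellate list rose and only Alas2 of the erythroid list fell. Stellate markers, Reln included, summed to 35.9 to 80.9 CPM on chow and 60.9 to 108.8 CPM on cholic acid. Erythroid markers, Alas2 included, summed to 189.3 to 409.4 and 73.8 to 209.8 CPM. Hbb-bs and Hba-a1 had log2 fold changes of -0.55 and -0.33 that were not called. The part of these markers in the results was not tested.

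**Figure D2:**
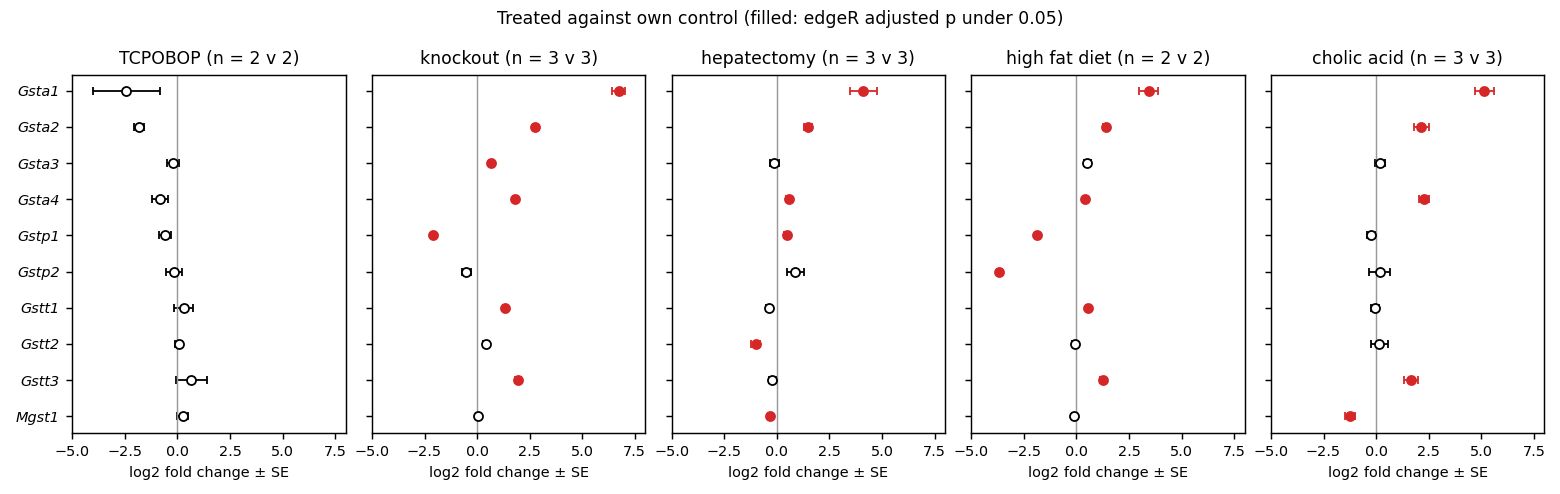
Log2 fold change of each gene against its own control, with bars of 1 SE and filled points for genes called by edgeR at an adjusted p under 0.05. Gsta1, Gsta2 and Gsta4 are filled and to the right of 0 in the knockout, hepatectomy, high fat diet and cholic acid panels, while Gstp1 lies at -2.11 in the knockout and -1.88 on the high fat diet.

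Gsta1 had the largest difference of the 10 genes in the knockout, after hepatectomy and on cholic acid, while Gstp2 had it on the high fat diet. In the knockout experiment the wild type livers had 0.376, 0.569 and 0.242 CPM of it, and the Fxr-/- Shp-/- livers 36.2, 35.9 and 55.4 CPM. The groups were far apart, although the wild type values rest on 7, 9 and 4 reads. The log2 fold change was 6.74 ± 0.30 (SE; edgeR adjusted p 1.68e-06), a fitted ratio of 107-fold. On cholic acid the level was 99.9, 248.0 and 270.0 CPM, against 6.61, 3.55 and 7.32 CPM on chow. Every cholic acid library was above every chow library, and the log2 fold change was 5.14 ± 0.47 (SE; edgeR adjusted p 0.00204), or 35.4-fold.

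After hepatectomy Gsta1 stood at 5.596, 14.9 and 3.15 CPM, against 0.523, 0.478 and 0.343 CPM in sham livers. The groups did not overlap, and PHx library 2 was the highest of its group. The log2 fold change was 4.12 ± 0.63 (SE; edgeR adjusted p 0.00216), and it was 3.27 (adjusted p 0.000942) without that library. In hepatocytes the level was 0.357 and 0.867 CPM on chow and 8.61 and 4.95 CPM on the high fat diet. In log2 terms the difference was 3.45 ± 0.45 (SE; edgeR adjusted p 0.00808), or 10.9-fold, and it was 4.24 (adjusted p 0.00175) without chow library 2. Ordered by mean level, Gsta1 was lowest in wild type, sham and chow hepatocytes, whose ranges overlapped, and next came the floxed chow, high fat and hepatectomy groups, whose ranges overlapped their neighbours. The knockout and TCPOBOP groups overlapped at a higher level, and the cholic acid group lay above the knockout. The highest mean was that of the corn oil group (228.0 CPM), whose libraries, at 8.93 and 447.0 CPM, lay on both sides of the cholic acid range. The order is a description, since each experiment was scaled on its own.

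Gsta2, the close copy of Gsta1, was higher in the same 4 comparisons from a higher control level. Wild type livers had 20.995, 20.9 and 18.9 CPM, and knockout livers 122.2, 138.6 and 147.8 CPM. The knockout effect was 2.75 ± 0.10 on the log2 scale (SE; edgeR adjusted p 6.66e-07), or 6.72-fold, with no overlap. On cholic acid it was 87.1, 154.5 and 105.1 CPM, against 29.7, 35.0 and 13.9 CPM on chow. These groups did not overlap either, and chow library 3 was the lowest. The log2 fold change was 2.14 ± 0.36 (SE; edgeR adjusted p 0.0157), and the call was lost without cholic acid library 2 (adjusted p 0.0627) or 3 (0.0546). The level rose from 7.35, 5.38 and 6.10 CPM in sham to 16.2, 21.8 and 14.96 CPM after hepatectomy (log2 fold change 1.49 ± 0.18, SE; edgeR adjusted p 0.000715). It rose from 9.74 and 11.1 CPM on chow to 30.4 and 24.9 CPM on the high fat diet (1.41 ± 0.13, SE; edgeR adjusted p 0.00404).

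Because these copies can share reads, Gsta1 and Gsta2 were also tested as 1 summed row. The sum rose by 3.11 ± 0.12 in the knockout, 1.93 ± 0.26 after hepatectomy, 1.64 ± 0.16 on the high fat diet and 3.33 ± 0.36 on cholic acid on the log2 scale (SE; edgeR adjusted p at most 0.00426 in these 4 fits). With all 26 libraries in 1 fit the call on the high fat diet was lost (adjusted p 0.0774). Adding Gm10639, a sum chosen after seeing the data, gave 3.11, 2.01, 1.68 and 3.49. Gm10639 by itself rose after hepatectomy (log2 fold change 4.96 ± 0.93, SE; edgeR adjusted p 0.00546), from only 1, 4 and 0 reads in sham livers. It also rose on the high fat diet (2.82 ± 0.32; 0.00594) and on cholic acid (5.49 ± 0.51; 0.00237). Its counts were too low for the test in the knockout experiment, at 0, 1 and 1 reads in wild type and 7, 8 and 27 reads in the knockout.

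Gsta4, the alpha enzyme for lipid peroxidation products, rose in the same comparisons as Gsta1 and Gsta2. Wild type livers had 23.04, 30.7 and 25.1 CPM, and knockout livers 85.8, 88.7 and 101.1 CPM. This was a log2 fold change of 1.81 ± 0.12 (SE; edgeR adjusted p 1.74e-05), or 3.502-fold. On cholic acid it was 257.1, 425.0 and 323.4 CPM, against 76.1, 79.1 and 52.6 CPM on chow. That difference was 2.27 ± 0.25 (SE; edgeR adjusted p 0.00383), or 4.84-fold, and neither pair of groups overlapped. The remaining differences were smaller. After hepatectomy it was 72.4, 81.5 and 91.8 CPM against 61.0, 50.7 and 53.3 CPM in sham (log2 fold change 0.57 ± 0.11, SE; edgeR adjusted p 0.00698). On the high fat diet it was 41.3 and 45.6 CPM against 31.8 and 34.3 CPM (0.39 ± 0.09, SE; edgeR adjusted p 0.0299). The last call was lost without chow library 1 (0.0896), high fat library 1 (0.0633) or high fat library 2 (0.122).

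Gsta3, the most abundant alpha gene per length in all 10 groups, moved least of the alpha class in the knockout. Wild type livers had 930.4, 854.5 and 922.2 CPM, and knockout livers 1406, 1529 and 1357 CPM. The groups did not overlap, and the log2 fold change of 0.67 ± 0.10 was called (SE; edgeR adjusted p 0.00124). In hepatocytes it was 702.4 and 927.4 CPM on chow and 1034 and 1292 CPM on the high fat diet, a difference of 0.51 ± 0.17 that was not called (SE; edgeR adjusted p 0.0787). It was called without chow library 2 (log2 fold change 0.72, adjusted p 0.0260). After hepatectomy 2 libraries were low and 1 was high (720.0, 716.2 and 1253 CPM against 912.5 to 1045 CPM in sham), and the log2 fold change was -0.13 ± 0.21 (SE; edgeR adjusted p 0.690). Without PHx library 3 it was -0.45 (adjusted p 0.00633). On cholic acid the groups overlapped, at 0.18 ± 0.26 (SE; edgeR adjusted p 0.707).

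Gstp1, the main pi transferase, was lower in the knockout and on the high fat diet. Wild type livers had 1012, 987.3 and 1118 CPM, and knockout livers 222.5, 241.1 and 260.6 CPM. The difference on the log2 scale was -2.11 ± 0.11 (SE; edgeR adjusted p 3.41e-06), or 4.31-fold lower. In hepatocytes it was 2286 and 2410 CPM on chow and 635.0 and 644.4 CPM on the high fat diet. This was a log2 fold change of -1.88 ± 0.09 (SE; edgeR adjusted p 0.000760), or 3.67-fold lower, and in neither experiment did the groups come near each other. Outside the knockout experiment, the high fat hepatocytes had the lowest mean level, below the range of every other group, and the remaining 7 groups overlapped their neighbours in the order of levels.

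After hepatectomy Gstp1 was 1898, 2354 and 1744 CPM against 1675, 1280 and 1305 CPM in sham. The groups were adjacent without overlap, and the log2 fold change of 0.49 ± 0.15 was called (SE; edgeR adjusted p 0.0369). The call was lost without sham library 2 (adjusted p 0.139), sham library 3 (0.135), PHx library 1 (0.0591) or PHx library 2 (0.109). On cholic acid it was 1516, 1629 and 2301 CPM against 2028, 2095 and 2345 CPM on chow, overlapping, with a log2 fold change of -0.25 ± 0.21 (SE; edgeR adjusted p 0.512).

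Gstp2, the minor pi gene, was much lower on the high fat diet. It was 20.9 and 19.7 CPM in chow hepatocytes and 1.49 and 1.70 CPM on the high fat diet, the latter from 111 and 123 reads. On the log2 scale this was -3.67 ± 0.13 (SE; edgeR adjusted p 0.000386), or 12.7-fold lower. Chow hepatocytes were the group with the highest Gstp2 level, above the 16 whole liver libraries outside the knockout experiment, which ran from 1.30 to 9.03 CPM. In the knockout it was 2.20, 2.37 and 2.54 CPM against 2.74, 3.29 and 4.17 CPM, a log2 fold change of -0.52 ± 0.22 that was not called (SE; edgeR adjusted p 0.0919). After hepatectomy (0.89 ± 0.41, SE; edgeR adjusted p 0.137) and on cholic acid (0.17 ± 0.51; 0.875) the groups overlapped. Without PHx library 3 the first of these was 1.23 (adjusted p 0.0112).

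Counts were shared unevenly with the pseudogene Gstp-ps. In the 6 libraries of the knockout experiment Gstp-ps held 39.9% to 48.7% of the counts of Gstp1, Gstp2 and Gstp-ps together, against 0.674% to 1.71% in the other 20 libraries. Wild type livers had 745.9, 942.0 and 757.7 CPM of it, and knockout livers 149.1, 184.4 and 195.7 CPM. Gstp-ps fell by 2.21 ± 0.14 on the log2 scale (SE; edgeR adjusted p 1.34e-05), close to the value of Gstp1. The summed row of Gstp1 and Gstp2 gave -2.10 ± 0.11 in the knockout (SE; edgeR adjusted p 3.62e-06), and with Gstp-ps added, a sum chosen after seeing the data, -2.14 ± 0.12 (4.76e-06). On the high fat diet the same sums gave -1.88 ± 0.09 with and without the pseudogene (SE; edgeR adjusted p 0.000807 and 0.000795). The levels of pi genes in the knockout experiment are therefore not set against those of other experiments. Why the shares differ between experiments was not tested.

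**Figure D3:**
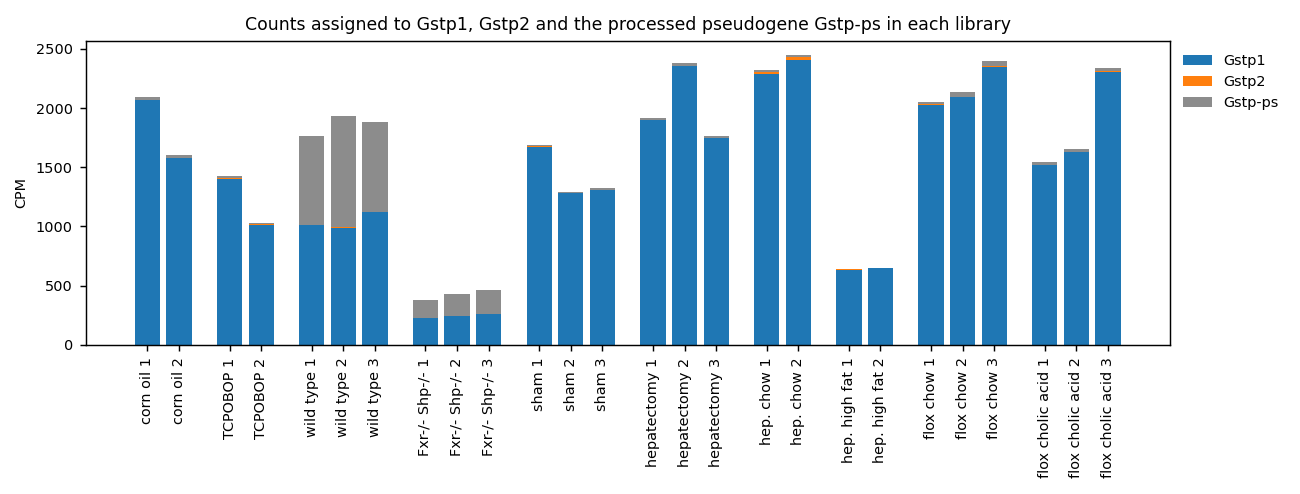
Stacked bars of CPM assigned to Gstp1, Gstp2 and the processed pseudogene Gstp-ps in each of the 26 libraries. The grey pseudogene part is large in the 3 wild type and 3 Fxr-/- Shp-/- libraries, at 39.9% to 48.7% of the stack, and the 2 high fat hepatocyte bars stand below their chow controls.

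Among the theta genes, Gstt1 and Gstt3 rose in the knockout and on the high fat diet. Gstt1 was at 216.5, 250.8 and 207.8 CPM in knockout livers and at 91.9, 94.2 and 82.7 CPM in wild type livers (1.33 ± 0.10 on the log2 scale, SE; edgeR adjusted p 3.46e-05). It was 109.7 and 110.7 CPM on chow and 160.7 and 162.4 CPM on the high fat diet (0.55 ± 0.08, SE; edgeR adjusted p 0.00882). The groups were apart in both experiments. After hepatectomy it was 149.7, 110.1 and 153.3 CPM against 173.9, 172.4 and 192.8 CPM in sham, a log2 fold change of -0.38 ± 0.13 that was not called (SE; edgeR adjusted p 0.0581). Without PHx library 3 it was -0.47 (adjusted p 0.0280). On cholic acid the groups overlapped, at -0.06 ± 0.19 (SE; edgeR adjusted p 0.876).

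Gstt3 was at 133.6, 135.2 and 177.8 CPM in knockout livers and at 42.6, 37.7 and 36.1 CPM in wild type livers. It rose by 1.94 ± 0.13 on the log2 scale (SE; edgeR adjusted p 1.75e-05), or 3.83-fold. It rose from 12.2 and 14.95 CPM on chow to 31.3 and 33.1 CPM on the high fat diet (1.24 ± 0.12, SE; edgeR adjusted p 0.00404). In neither experiment did the groups overlap. On cholic acid it was 60.7, 134.7 and 68.4 CPM against 28.2, 33.5 and 22.5 CPM on chow, again with no overlap, and cholic acid library 2 was the highest. It rose by 1.65 ± 0.32 on the log2 scale (SE; edgeR adjusted p 0.0260). That call was lost without chow library 1 (adjusted p 0.0751) or 2 (0.0760) and without cholic acid library 2 (0.0541) or 3 (0.0590). After hepatectomy the groups overlapped, at -0.22 ± 0.17 (SE; edgeR adjusted p 0.362).

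Gstt2 differed from the other theta genes in having a call in the hepatectomy comparison alone; differences between the genes were not tested. It was 67.0, 92.5 and 102.8 CPM in sham and 52.2, 47.8 and 31.6 CPM after hepatectomy. The groups did not overlap, and the log2 fold change was -0.995 ± 0.21 (SE; edgeR adjusted p 0.00989), or 1.99-fold lower. In the knockout it was 60.8, 71.2 and 88.5 CPM against 55.1, 46.8 and 63.2 CPM, overlapping, at 0.42 ± 0.16 (SE; edgeR adjusted p 0.0592). Without wild type library 3 or knockout library 1 that difference was called (log2 fold change 0.52 and 0.53, adjusted p 0.0492 and 0.0311). The values were -0.08 ± 0.12 on the high fat diet (SE; edgeR adjusted p 0.648) and 0.14 ± 0.40 on cholic acid (0.863), with overlapping groups in both.

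Mgst1, the microsomal enzyme, which also reduces lipid hydroperoxides, was lower on cholic acid. It was 3612, 3785 and 5513 CPM on chow and 1558, 1901 and 1996 CPM on cholic acid. Chow library 3 was the highest of all 26, and the groups did not overlap. The fitted log2 fold change was -1.24 ± 0.23 (SE; edgeR adjusted p 0.0211), or 2.37-fold lower. The call was lost without chow library 2 (adjusted p 0.0634) and without cholic acid library 1 (0.0916), 2 (0.0693) or 3 (0.0697). After hepatectomy it was 2429, 2408 and 2520 CPM against 3196, 2920 and 3059 CPM in sham. That fall of 0.32 ± 0.08 on the log2 scale was called (SE; edgeR adjusted p 0.0204), and the call was lost without sham library 1 (0.0680), 2 (0.0564) or 3 (0.0697) or PHx library 1 (0.0594). In the knockout the groups overlapped, at 0.05 ± 0.11 (SE; edgeR adjusted p 0.753), and on the high fat diet the value was -0.12 ± 0.09 (0.397).

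In the TCPOBOP experiment none of the 10 genes was called by edgeR, and none of the 12785 genes tested was called (0% higher and 0% lower). At an unadjusted p under 0.05 there were 751 genes, among them Gsta2 as the only member, and DESeq2 called 102 genes, Gsta2 included. The median log2 fold change of the 10 genes was -0.19, against -0.02 over all genes. The TCPOBOP libraries had 15.7 and 10.5 CPM of Gsta2, and the corn oil libraries 51.7 and 42.4 CPM. Both TCPOBOP libraries were below both corn oil libraries, at a log2 fold change of -1.84 ± 0.24 (SE; edgeR adjusted p 0.489). For Gsta1 the library labelled corn oil 1 had 447.0 CPM and corn oil 2 had 8.93 CPM, and the TCPOBOP libraries had 55.4 and 29.2 CPM. The TCPOBOP values lay between the 2 controls, and the log2 fold change was -2.43 ± 1.59 (SE; edgeR adjusted p 0.924). For Gstt3 the corn oil libraries 1 and 2 had 233.7 and 45.4 CPM, and the TCPOBOP libraries had 240.8 and 198.2 CPM.

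The direction in this experiment depended on which control library was kept. Without the library labelled corn oil 1, edgeR called 1233 genes and 4 of the 10: Gsta1 at a log2 fold change of 2.25 (adjusted p 0.00772), Gstt3 at 2.28 (0.000300), Gstt1 at 1.13 (0.00387) and Gsta2 at -1.69 (0.00245). Without corn oil 2 it called 413 genes and 3 of the 10: Gsta1 at -3.40 (adjusted p 0.000924), Gsta2 at -1.98 (0.00231) and Gsta4 at -1.25 (0.00655). With 1 control library left, it is assumed to vary as the TCPOBOP libraries do. Gsta2 was lower with either control, and Gsta1 changed direction. The other values were -0.22 ± 0.28 for Gsta3, -0.83 ± 0.37 for Gsta4, -0.59 ± 0.28 for Gstp1 and -0.16 ± 0.38 for Gstp2 (SE), with edgeR adjusted p of 0.869 or more. They were 0.29 ± 0.46 for Gstt1, 0.06 ± 0.16 for Gstt2, 0.65 ± 0.74 for Gstt3 and 0.26 ± 0.26 for Mgst1 (SE), with edgeR adjusted p of 0.947 or more. Without the library labelled corn oil 1 the genes not called were at 0.0394 for Gsta3, -0.23 for Gsta4, -0.38 for Gstp1, -0.19 for Gstp2, -0.10 for Gstt2 and 0.35 for Mgst1, with edgeR adjusted p of 0.346 or more.

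**Figure D4:**
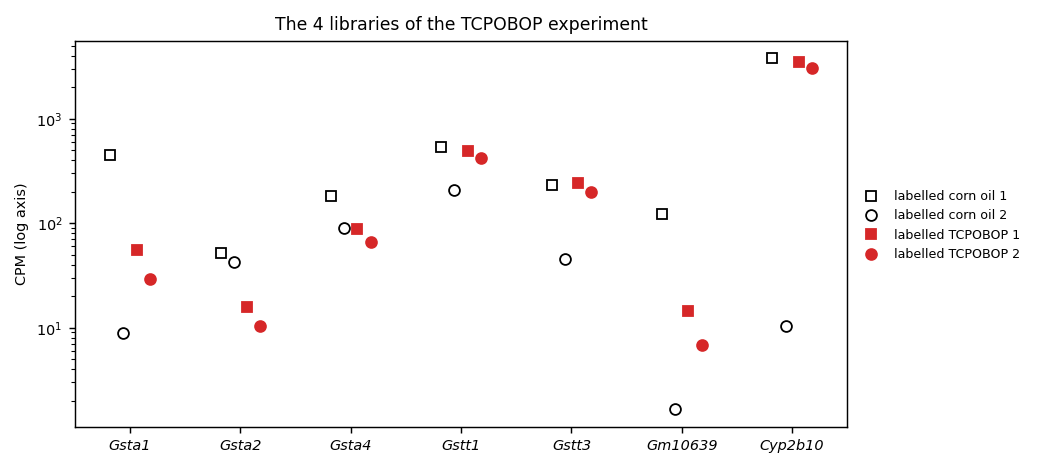
CPM on a log axis in the 4 libraries of the TCPOBOP experiment for 5 transferase genes, the copy Gm10639 and the CAR target Cyp2b10. The library labelled corn oil 1 lies with the TCPOBOP libraries for Cyp2b10 and Gstt3 and above them for Gsta1 (447.0 against 55.4 and 29.2 CPM), while both TCPOBOP libraries lie lowest for Gsta2.

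The knockout and the cholic acid diet both bear on bile acid signalling, so the difference between their effects was tested over their 12 libraries. Of the 10 genes, 2 had a larger value in the knockout (Gstt1 and Mgst1), where 7.18% of 13935 genes did. Only Gstp1 had a lower value in the knockout, where 6.74% of all genes did, so that count was near the background. The knockout effect minus the cholic acid effect was -1.85 ± 0.23 for Gstp1 (SE; edgeR adjusted p 0.000401), 1.40 ± 0.22 for Gstt1 (0.00131) and 1.30 ± 0.25 for Mgst1 (0.00496). These 3 calls were kept in each of the 16 alternatives tried per gene. For the alpha genes the difference was 1.59 ± 0.65 for Gsta1 (SE; edgeR adjusted p 0.127), 0.61 ± 0.39 for Gsta2 (0.334), 0.49 ± 0.29 for Gsta3 (0.293) and -0.46 ± 0.28 for Gsta4 (0.305). Without chow library 3 that of Gsta2 was 0.91 (0.0384). The remaining values were -0.68 ± 0.61 for Gstp2, 0.28 ± 0.48 for Gstt2 and 0.29 ± 0.37 for Gstt3 (SE), with edgeR adjusted p of 0.510 or more. The experiments differ in age, fasting and floxed alleles as well, which cannot be told apart from the effects compared.

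**Figure D5:**
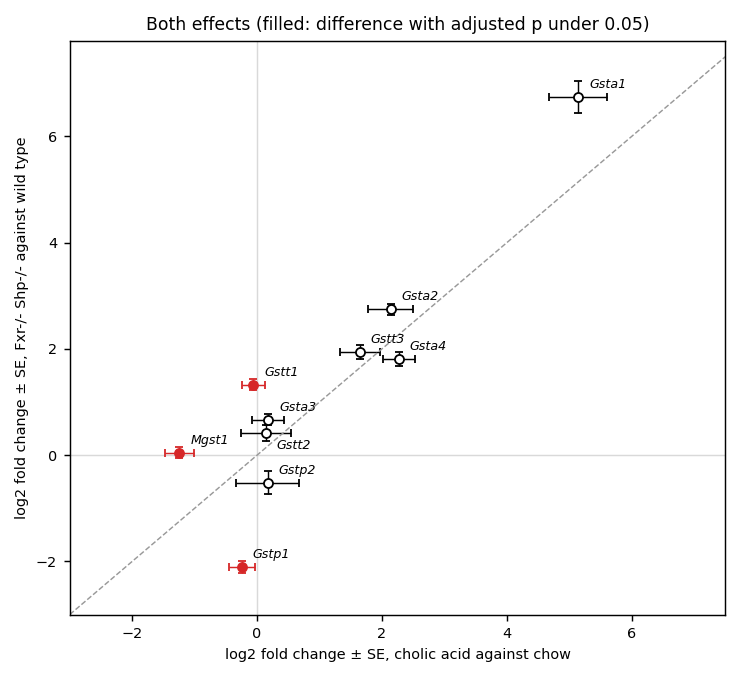
Log2 fold change in the Fxr-/- Shp-/- livers (vertical) against that on cholic acid (horizontal) for the 10 genes, with bars of 1 SE, a dashed line of equal effects, and filled points where the difference was called. Gsta1, Gsta2, Gsta4 and Gstt3 are far to the upper right, and the called genes Gstp1 (-1.85), Gstt1 (1.40) and Mgst1 (1.30) lie off the line. Gsta1 lies off the line as well (1.59, with an SE of 0.65) but was not called.

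The other genes of glutathione metabolism were counted from a list of 45. In the knockout 22 rose and 10 fell of 43 tested, where 21% of all genes rose and 19.4% fell, so the count that fell was near the background. After hepatectomy 6 rose and 11 fell of 41, where 16.4% and 14.3% of all genes did, so the count that rose was near the background. On the high fat diet 9 rose and 6 fell of 41, against 12.9% and 11.1% of all genes, and the count that fell was again near the background. On cholic acid 11 rose and 1 fell of 41, against 2.27% and 2.5% of all genes, and the count that fell was near the background. With TCPOBOP none of 41 was called. The mu class, a further class of cytosolic transferases, rose in 7 of 7 genes in the knockout and 4 of 7 on cholic acid. It rose in 1 and fell in 2 after hepatectomy, and 3 of 7 fell on the high fat diet.

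Named from that list are the called genes that moved by at least 1 on the log2 scale, at most 6 in a comparison. In the knockout the mu gene Gstm3 rose by 4.18, the conjugate exporter Abcc4 by 4.79 and the microsomal Mgst3 by 3.47 on the log2 scale. Mgst2 averaged 0.0569 CPM in wild type livers and 8.39 CPM in knockout livers, and the cystine importer Slc7a11 had no count in wild type livers and averaged 1.44 CPM in knockout livers. Nr0b2, itself targeted in the knockout, fell by 4.03. On cholic acid Gstm3 rose by 6.22, Gstm1 by 3.21, Gstm2 by 2.48, the Nrf2 target Nqo1 by 2.52, Nr0b2 by 1.96 and Abcc4 by 1.87. On the high fat diet the exporter Abcc1 rose by 1.60, Nqo1 by 1.34, Mgst3 by 1.33 and the pi gene Gstp3 by 1.139, and the aryl hydrocarbon receptor gene Ahr fell by 1.09. After hepatectomy Nr0b2 rose by 1.99 and Chac1, which degrades glutathione, fell by 1.21.

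Genes with the most similar pattern were found by Pearson correlation of log2 CPM over the 26 libraries, after subtracting the mean of each experiment, among 10119 genes. For Gsta1 they were Stk10 (r = 0.908), Ccnd1 (0.904), Nid1 (0.902), Pxylp1 (0.901) and Tgm2 (0.900). For Gstp1 they were Hax1 (r = 0.903), Tm2d3 (0.890), Mars (0.889), Actl6a (0.884) and Cyp4a12b (0.883). For Gstt1 they were Serpina6 (r = 0.897), Pgrmc1 (0.886), Mat2a (0.884), Mtln (0.882) and Pyroxd2 (0.875). Libraries of 1 group share their treatment, so these values describe the pattern over groups.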

How the data were processed

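The values are whole-number counts of reads per gene, deposited as 1 table for 26 libraries of mouse liver or hepatocyte mRNA made with a stranded TruSeq kit per the labels. Per the submitters' processing notes the tools were bcl2fastq 2.17.1.14, Trimmomatic, STAR 2.4.2a, Picard 1.119 and HTSeq, with the builds GRCm38 and mm10. The annotation release and the strand setting of the counting are not given in the sources used here. Lines that name no gene, such as reads without a unique alignment (16.6% to 44.1% of all that the table lists for a library), stayed out of library sizes and tests. Symbols matched 47224 of 47643 identifiers. Gsta5 and Gsta13 of the pathway list were not analysed here.

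Each experiment was fitted alone on the raw counts with edgeR 4.0.16 (limma 3.58.1, R 4.3.3): filterByExpr (a count of 10, a total of 15), TMM scaling and the quasi-likelihood F test, with Benjamini-Hochberg adjustment over all genes tested. A gene was called at an adjusted p under 0.05. The contrast of the knockout and cholic acid effects used their 12 libraries. CPM values were scaled by TMM within an experiment, so levels set across experiments are descriptions. Length was that of 1 transcript a gene from GENCODE M21, the principal one where marked. The procedure was tested on simulated counts with a seeded log2 change of 1.5. It recovered 38.9% of the seeded genes in the TCPOBOP design (12584 genes) and 90.9% in the knockout (13286). Recovery was 85.6% after hepatectomy (13602), 85.7% on the high fat diet (13631) and 70.7% on cholic acid (12404). Genes without a seeded change were called too, at 14 beside 75 recovered with TCPOBOP and 13 beside 179 in the knockout. Such calls numbered 12 beside 167 after hepatectomy, 27 beside 168 on the high fat diet and 14 beside 140 on cholic acid.

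The named genes were all 10 members, called genes of the pathway list with a log2 fold change of at least 1 in size (at most 6 a comparison), and the 5 genes most correlated with Gsta1, Gstp1 and Gstt1. The members and lists were chosen with earlier results of these data known. Alternatives were DESeq2's size factors and DESeq2 1.42.0's Wald test, testing every gene without a filter, requiring a mean of 10 reads, fitting all 26 libraries together, a replicate block, and leaving out each library. The replicate numbers come from the titles. Deviations of same-numbered libraries from their group means had correlations over genes of 0.132, 0.153 and 0.103 in the cholic acid experiment. The values were -0.17 to -0.02 in the knockout and -0.08 to 0.07 in the hepatectomy experiment. They were 0.1006 with TCPOBOP and 0.1045 on the high fat diet, where groups of 2 give the same value for both numbers. Differently numbered libraries were not compared, so whether a shared number marks a pair was not tested.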

Additional observations from a re-analysis of the deposited data

Results flagged for a closer look

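The effect of the double knockout and that of the cholic acid diet differed for 3 of the 10 genes by edgeR's quasi-likelihood test of the difference over their 12 libraries. For Gstp1 the knockout effect minus the cholic acid effect was -1.85 on the log2 scale (adjusted p 0.000401), and all 3 knockout libraries were below all 3 wild type libraries while the cholic acid and chow libraries overlapped. For Gstt1 it was 1.40 (adjusted p 0.00131), again with separate groups in the knockout experiment and overlapping groups on cholic acid. For Mgst1 it was 1.30 (adjusted p 0.00496), with overlapping groups in the knockout experiment and all 3 cholic acid libraries below all 3 chow libraries. Gstp-ps held 39.9% to 48.7% of the pi class counts in the knockout experiment and 0.674% to 1.71% elsewhere, and its part in the Gstp1 difference was not tested beyond the summed rows. No group had more than 3 libraries, so single libraries were not tested as outliers.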

How the results depend on the processing

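Over the 5 comparisons and the difference, 28 values of the 10 genes were called. Their alternatives numbered 334, of which 306 kept the call and its direction, 28 lost it and 0 reversed. The 32 values not called had 386 alternatives, of which 24 gained a call and 17 changed sign, with 1 (Gsta1 with TCPOBOP, without corn oil 1) in both counts. Causes were not tested. Leaving out 1 library at a time, the genes called ranged from 0 to 1233 with TCPOBOP, 2554 to 4217 after hepatectomy, 1141 to 2644 on the high fat diet and 189 to 1345 on cholic acid. The members called ranged from 4 to 9 after hepatectomy, where 9 were called without PHx library 3, from 7 to 8 in the knockout and from 2 to 5 on cholic acid. In these fits the log2 fold change with TCPOBOP ranged from -3.40 to 2.25 for Gsta1, -0.44 to 0.0394 for Gsta3, -0.71 to 0.26 for Gstp2, -0.23 to 1.13 for Gstt1, -0.10 to 0.24 for Gstt2, -0.0878 to 2.28 for Gstt3 and -3.17 to 0.12 for the sum of Gsta1 and Gsta2. It ranged from -0.45 to 0.0111 for Gsta3 after hepatectomy and -0.25 to 0.0612 for Gstt2 on the high fat diet. On cholic acid it ranged from -0.23 to 0.82 for Gstp2, -0.18 to 0.0750 for Gstt1 and -0.0906 to 0.74 for Gstt2, and the difference of effects for Gstt2 from -0.33 to 0.51. DESeq2's Wald test called 102 genes and 1 member with TCPOBOP and 1379 genes on cholic acid, and no filter gave 955 there. With all 26 libraries in 1 fit, 9 genes and 1 member were called with TCPOBOP, 1735 genes and 4 members on the high fat diet, 3132 genes on cholic acid and 2991 for the difference. That fit lost the calls of Gsta4 and Mgst1 after hepatectomy (adjusted p 0.0602 and 0.111) and of Gsta4, Gstt1 and Gstt3 on the high fat diet (0.340, 0.177 and 0.0753), and of the sum of Gsta1 and Gsta2 there (0.0774).

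With the replicate block, the cholic acid comparison called 480 genes and the same number of members (5), and no member changed its call. Whether a shared number marks a pair was not tested in any experiment. In the other experiments the block lost Gstp1 and Mgst1 after hepatectomy (edgeR adjusted p 0.0585 and 0.0508). It gained Gstt1 there (0.0436), Gstt2 in the knockout (0.0314) and Gsta3 on the high fat diet (0.0185). It gave 4763 genes in the knockout, 3664 after hepatectomy, 3693 on the high fat diet, 0 with TCPOBOP and 1536 for the difference. Depth limits Gsta1 in wild type and sham livers, where 4 to 16 reads carry a level.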

Other observations

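The pi gene Gstp3 shares 76.49% of its coding bases with Gstp1. It rose in the knockout, from 4.65 ± 0.70 CPM in wild type to 7.37 ± 0.25 CPM (SD, n = 3 each; log2 fold change 0.66, edgeR adjusted p 0.0112), where Gstp1 fell. On the high fat diet it rose from 5.96 ± 0.69 to 13.2 ± 0.53 CPM (SD, n = 2 each; 1.139, edgeR adjusted p 0.00614), where Gstp1 and Gstp2 fell. After hepatectomy it fell from 24.1 ± 1.25 to 18.2 ± 2.90 CPM (SD, n = 3 each; -0.41, edgeR adjusted p 0.0425), where Gstp1 rose. The difference between the genes was not tested. Gstt4, a further theta gene, had a level of at most 0.0299 CPM in any library.

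Among the 10 genes, correlations of log2 CPM over the 26 libraries, after subtracting the mean of each experiment, were highest between Gsta2 and Gsta4 (Pearson r = 0.915), Gsta1 and Gsta4 (0.888) and Gsta1 and Gsta2 (0.881). The value was 0.788 for Gstt1 and Gstt3 and 0.787 for Gsta1 and Gstt3. Gstp1 was negatively related to Gstt1 (-0.75) and Gstt3 (-0.69), and Mgst1 to Gsta4 (-0.69). These are descriptions over libraries that share treatments, and Gsta1 and Gsta2 may share reads.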
